A study of Mus musculus with 15 samples.

Results

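The 10 genes described here, Camp, Ltf, Ngp, Lcn2, S100a8, S100a9, Mmp8, Mmp9, Cd177 and Wfdc21, encode proteins that neutrophils make late in their maturation. They were taken by gene symbol, and all 10 were found in each of the 4 deposited tables, among 20723 symbols that occur in at least 1 table. Expression had been measured by RNA sequencing of poly(A)-selected RNA from total bone marrow of leukemic C57BL/6 mice, in 15 libraries that form 5 groups of 3. Every leukemia had been started with a retrovirus carrying the MLL-AF9 fusion oncogene and a GFP reporter in lineage-depleted donor cells, the GFP-positive cells had been sorted and given to mice irradiated with 7 and 3 Gy, and the leukemias had been passed on through mice given 3 Gy until the quaternary recipients were sampled. The donors of group 36S (GFI1 KI/KI, libraries 1 to 3) carried human GFI1 in place of the mouse gene, those of group 36N (GFI1 36N/36N, libraries 4 to 6) the 36N variant of human GFI1, and those of group KD (GFI1 KD/KD, libraries 7 to 9) human GFI1 at 10 to 20% of its expression. In the remaining groups, 36S TMZ (libraries 1 to 3) and 36N TMZ (libraries 4 to 6), leukemic marrow cells of the same genotypes had been exposed to 50 µg/ml of the DNA-methylating drug temozolomide (TMZ) for 20 h before RNA isolation. All groups thus share MLL-AF9, serial transplantation and a human GFI1 allele, and none is healthy marrow. No group is listed as held for 20 h without TMZ, so effects of the drug and of those 20 h cannot be told apart. The marrow was not sorted before RNA extraction, so the libraries also hold whatever other cells the recipients had. The labels give neither the age of the mice nor whether the libraries of a group come from separate leukemias, and the p-values then measure only the spread between these libraries.

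Values are normalized counts as deposited, with column totals of 11265945 to 24264818, and the read depth behind them is unknown. The 36S values are identical in the 36N and the KD table (largest difference 0), so the 9 untreated libraries share 1 normalization, while both TMZ tables were normalized separately. Myeloid genes were present in every untreated library: normalized counts of the primary granule genes summed to 62145 to 157251 and those of the monocyte and macrophage markers to 61854 to 214158, against 29.62 to 1351 for the erythroid markers. The TMZ libraries stood apart. Summed mast cell and basophil markers were 987 to 1725 in untreated 36N and 109014 to 302393 in 36N TMZ in the table that holds both. Gfi1 itself was tested in that table alone. It stood at 506, 565 and 367 in untreated 36N and at 723, 504 and 555 in 36N TMZ (log2 fold change 0.32, limma adjusted p = 0.221), so these groups overlapped. The other tables as used here held no Gfi1 row, so Gfi1 in the 36S and KD libraries could not be analysed. The donors carried human GFI1. Whether the reads counted for mouse Gfi1 came from that allele or from recipient cells was not tested.

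Neutrophils fill their granules in order as they mature. Primary granule proteins such as myeloperoxidase are made first, in promyelocytes, specific granule proteins such as lactoferrin follow in myelocytes and metamyelocytes, and gelatinase granule proteins come last. C/EBP factors, C/EBP epsilon above all, drive the later steps, and GFI1 is a zinc finger repressor that supports the granulocytic against the monocytic fate. In leukemic marrow, transcripts of late granule genes can mark cells that have gone some way along this path. Which cells carried them here was not tested. Camp encodes the cathelicidin antimicrobial peptide precursor, Ltf the iron-binding lactoferrin, Ngp the cystatin-related neutrophilic granule protein and Lcn2 the siderophore-binding lipocalin 2, all of them cargo of specific granules. S100a8 and S100a9 encode the calcium-binding subunits of calprotectin, which fills the cytosol of neutrophils and monocytes. Mmp8 is neutrophil collagenase, Mmp9 is gelatinase B, Cd177 is a neutrophil surface antigen, and Wfdc21 belongs to the whey acidic protein family.

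In the GENCODE M21 annotation of mm10, each is a protein-coding gene. Camp (9:109847379-109849617, minus strand), Ngp (9:110419747-110423012, plus strand) and Ltf (9:111019271-111042767, plus strand) lie near each other on chromosome 9, and Mmp8 (9:7558456-7568485, plus strand) lies far from them on the same chromosome. S100a8 (3:90668978-90670035, plus strand) and S100a9 (3:90692632-90695721, minus strand) are neighbours on chromosome 3. Lcn2 (2:32384633-32388252, minus strand) and Mmp9 (2:164940780-164955850, plus strand) are on chromosome 2, Cd177 (7:24743983-24760311, minus strand) is on chromosome 7, and Wfdc21 (11:83746940-83752642, plus strand) is on chromosome 11.

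Promoters from RefSeq (GRCm38.p6, 250 bases before to 50 after the start) were matched for 8 of the 10 genes, that is for all but Mmp9 and Wfdc21. A motif of the kind bound by C/EBP factors, TTGCNNAA on either strand (TTNNGCAA on the other), occurred in 5 of these 8 (Ltf, Ngp, Lcn2, S100a9 and Mmp8) and in 10.8% of all 32851 promoters of that length. The PU.1-type letters GAGGAA (on the other strand TTCCTC) occurred in 5 of 8 (Ltf, Lcn2, S100a8, Mmp8 and Cd177) and in 28.3% of all, and the GFI1-type letters AAATCAC (on the other strand GTGATTT) in 2 of 8 (Ltf and Mmp8) and in 3.2% of all. In these 8 promoters no match of one motif overlapped a match of another, and a match describes the sequence, not a bound site. The 150 bases just before the start are shown for 3 genes that carry the C/EBP-type letters there, Ngp and Ltf, which were low in KD, and Mmp8, which was high in KD; capitals mark TTGCNNAA on either strand. Ngp is chr9:110419658-110419807, Ltf is chr9:111019142-111019291 and Mmp8 is chr9:7558279-7558428, all on the plus strand.
Ngp: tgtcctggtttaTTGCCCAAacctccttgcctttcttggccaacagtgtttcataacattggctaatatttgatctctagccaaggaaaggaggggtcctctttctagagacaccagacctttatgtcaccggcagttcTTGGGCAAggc
Ltf: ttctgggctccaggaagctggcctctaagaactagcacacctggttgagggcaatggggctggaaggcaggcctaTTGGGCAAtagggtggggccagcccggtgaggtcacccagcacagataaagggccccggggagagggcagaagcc
Mmp8: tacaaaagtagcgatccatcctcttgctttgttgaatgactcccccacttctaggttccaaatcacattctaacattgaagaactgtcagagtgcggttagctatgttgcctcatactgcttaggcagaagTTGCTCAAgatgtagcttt
The Ngp stretch holds 2 such matches, at -138 to -131 and at -11 to -4 from the start (the last base before it being -1), and the Ltf stretch holds 1, at -75 to -68. In Mmp8 the match lies at -19 to -12, with the AAATCAC letters in lower case at -91 to -85. The same C/EBP-type letters thus occur beside Ltf and Ngp, which were lower in KD, and beside Mmp8, which was higher. Ngp was called against 36N only. The letters also occur beside Lcn2 and S100a9, which were called in neither KD comparison.

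The 36S libraries differed more from each other in these genes than in most. Library 1 had the highest normalized count of the 36S group for all 10, and for 8 of them it was at least 3-fold above either of the other libraries, which held for 74 of 13137 genes tested (0.56%). The exceptions were Mmp8 and Cd177. The 10 genes and the other gene lists were chosen with earlier results of these data known, and the 3-fold step was counted for library 1 only. The share of 0.56% is therefore given for scale and is not a test.
For S100a9 the 36S libraries held 16307, 1547 and 588 normalized counts, and for its partner S100a8 they held 21822, 2837 and 1365. Library 1 was thus 10.5-fold and 7.69-fold above the next 36S library. For Mmp9 they held 1128, 84.6 and 52.5, a 13.2-fold step from library 1 to the next. Among the specific granule genes, Ltf stood at 5443, 718 and 219, Camp at 2477, 437 and 212, and Ngp at 10490, 1715 and 965. Lcn2 spread least of the 4, with 7090, 1608 and 1076, and Wfdc21 stood at 586, 68.0 and 25.6. For each of these 8 genes library 3 was lowest, and the highest library exceeded the lowest by 6.59-fold (Lcn2) to 27.7-fold (S100a9), against a median of 1.31-fold over all genes tested. Mmp8, with 1184, 750 and 1136, and Cd177, with 2105, 1388 and 1688, spread by 1.58-fold and 1.52-fold. Neither stood out in library 1, and library 2 was their lowest.

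Some other late granule and mature neutrophil genes were also high in library 1. Of 35 tested, 8 were at least 3-fold higher there than in either other 36S library (Ly6g, Retnlg, Itgb2l, Lrg1, Fcnb, Mmp25, Orm1 and Fpr1), against the 0.56% of all genes given above. None of 9 primary granule genes reached 3-fold, although their sum was highest in library 1 (157251, against 111855 and 77856). The 15 monocyte and macrophage markers included none that reached 3-fold, and their sum was lowest there (61854, against 78932 and 90240). Of the remaining marker lists, 2 of 7 B and plasma cell markers (Cd79a and Ebf1), 1 of 4 T and NK cell markers (Nkg7), 1 of 3 erythroid markers (Slc4a1) and 1 of 4 eosinophil markers (Ear2) reached 3-fold, with erythroid sums of 231, 63.4 and 59.8. The part of these markers in the spread was not tested. In bulk marrow, a change in the share of late neutrophils and a change in RNA per cell cannot be told apart.

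**Figure D1:**
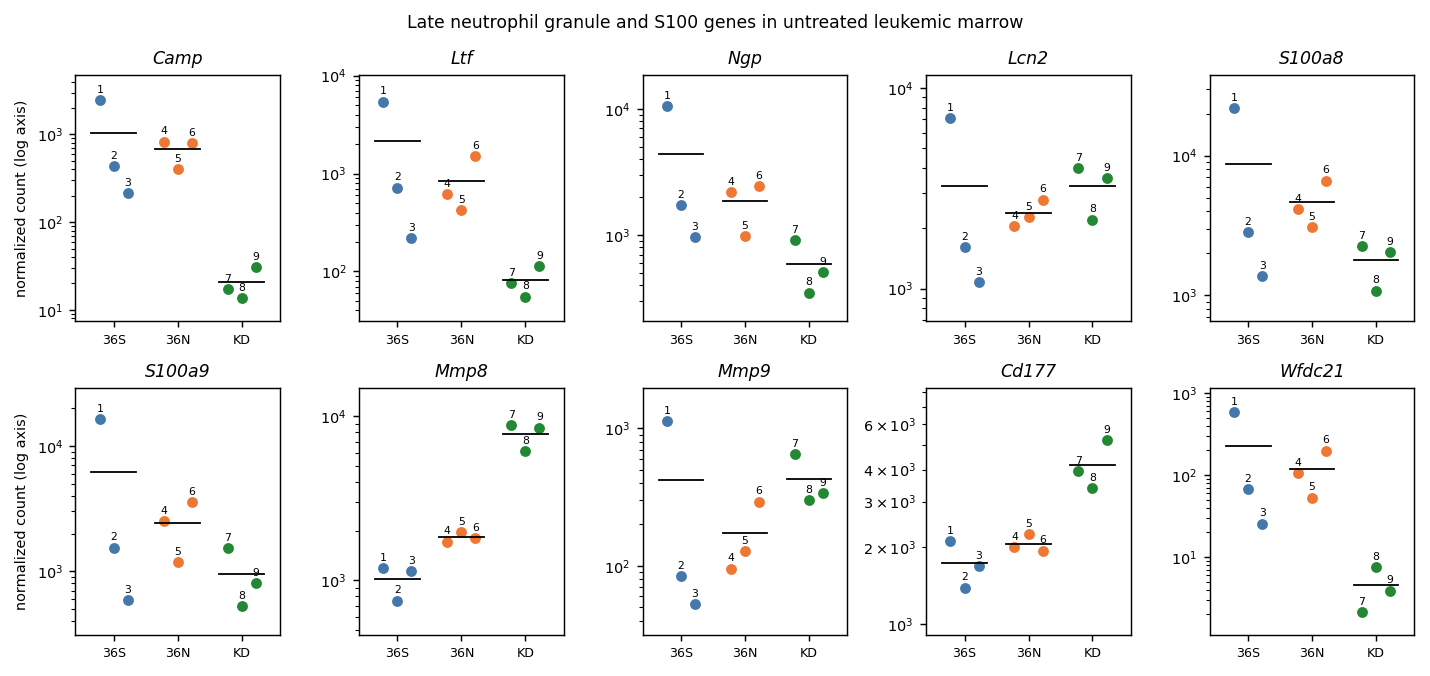
Normalized counts (log axis) of the 10 genes in the 9 untreated libraries, each point a library with its number, each line the mean of its group of 3 (36S, 36N, KD). Library 1 of 36S lies apart from libraries 2 and 3 for all genes but Mmp8 and Cd177, and the KD libraries lie lowest for Camp, Ltf and Wfdc21 and highest for Mmp8 and Cd177.

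Between the GFI1 variants, 36N against 36S, 1 of the 10 genes changed. Mmp8 rose in 36N, from 1184, 750 and 1136 normalized counts in 36S to 1718, 1959 and 1802, and the groups did not overlap (1.82-fold, log2 fold change 0.86, SE 0.17, limma adjusted p = 0.0254). Over all genes tested, 2.55% were called higher and 2.01% lower in this comparison, and the groups did not overlap for 26.9%, against 1 of the 10 described here. The median log2 fold change of the 10 was 0.01, beside -0.01 over all genes. The Mmp8 call was lost when 36S library 2 or any 36N library was left out (adjusted p 0.0527 to 0.103).

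The other 9 genes overlapped between 36N and 36S. Camp stood at 827, 401 and 801 in 36N, Ltf at 612, 424 and 1505, and Ngp at 2186, 987 and 2435. All of these values lie between the highest and the lowest 36S library. So do those of Lcn2 (2052, 2280 and 2776), S100a8 (4159, 3081 and 6609) and S100a9 (2508, 1190 and 3563). Mmp9 stood at 95.5, 129 and 293 and Wfdc21 at 105, 53.0 and 199, again within the 36S range. Cd177 stood at 1999, 2241 and 1935, with library 5 above every 36S library (log2 fold change 0.27, adjusted p = 0.35). For the 8 genes that library 1 of 36S sets apart, log2 fold changes ran from -0.58 (Ngp) to 0.07 (Camp), with adjusted p from 0.696 to 0.999. Their 95% intervals were wide, for example -2.39 to 2.07 for S100a9, so changes of several fold in either direction were not detectable with these libraries. Without 36S library 1 all 8 log2 fold changes were above 0, from 0.43 (Ngp) to 1.29 (Wfdc21), and none passed the test (adjusted p 0.054 to 0.639).

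In KD marrow the 10 genes split. Camp and Ltf fell against 36S by 12-fold or more, Mmp8 rose 7.69-fold and Cd177 2.42-fold. Wfdc21 was called lower too, but no KD library reached 10 normalized counts, so it entered each KD test through the other group alone and had to differ there. The other 5 did not pass against 36S. Against 36N, with its tighter spread, Camp, Ltf, Ngp and S100a8 fell and Mmp8 and Cd177 rose, and Wfdc21 was called lower under the same limit. Of all genes, 6.61% were called higher and 4.86% lower in KD against 36S, beside 2 and 3 of the 10 (Wfdc21 among the 3), and 31.5% did not overlap, beside 6 of the 10. Against 36N, 2.03% were called higher and 1.21% lower, beside 2 and 5 of the 10 (Wfdc21 among the 5), and 22.6% did not overlap, beside 8 of the 10. Wfdc21 is also among the 6 and the 8 and in the medians of the 10. These median log2 fold changes were -1.43 and -1.35, beside -0.01 over all genes in both comparisons. These comparisons share the KD libraries, so they are not independent. With libraries scaled to equal totals, the median over all genes was -0.13 in each, the counts of the 10 called were 5 and 7 as before, and genes called went from 866 higher and 637 lower to 605 and 936 against 36S, and from 266 and 159 to 176 and 179 against 36N.

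Camp was the gene furthest down. The KD libraries held 17.2, 13.7 and 30.9 normalized counts, where the lowest 36S library had 212 and the lowest 36N library 401. Neither group overlapped KD. The fold was 30.1 against 36S (log2 fold change -4.91, SE 0.74, limma adjusted p = 0.00326) and 31.6 against 36N (-4.98, SE 0.36, adjusted p = 5.6e-05). Without 36S library 1 the log2 fold change was -3.90 (adjusted p = 0.00049), and without library 3 it was -5.67 (adjusted p = 0.00178).
Ltf stood at 76.1, 55.4 and 113 in KD, below every 36S and 36N library. It was 12-fold lower than in 36S (log2 fold change -3.59, adjusted p = 0.0328) and 9.24-fold lower than in 36N (-3.21, adjusted p = 0.00228). The first of these calls rests on few libraries: Ltf gave -2.33 without 36S library 1 (adjusted p = 0.012) and -4.64 without library 3 (adjusted p = 0.00563), and the call was lost without 36S library 2 or any KD library (adjusted p 0.0653 to 0.0878).
Ngp stood at 913, 350 and 511 in KD, lower than all 36S and 36N libraries, though KD library 7 came close to 36S library 3 at 965 and 36N library 5 at 987. It passed the test against 36N (3.18-fold, log2 fold change -1.67, adjusted p = 0.0419), a call lost without 36N library 4, 36N library 6 or KD library 9 (adjusted p 0.113 to 0.169), and not against 36S (-2.24, adjusted p = 0.0802).
Lcn2 did not share the low values of the other specific granule genes. With 4006, 2206 and 3561 it lay within the 36S range and overlapped 36N, with log2 fold changes of 0.45 (adjusted p = 0.671) and 0.43 (adjusted p = 0.321). Without 36S library 1 it passed as higher in KD (1.26, adjusted p = 0.0162).

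Of the calprotectin genes, S100a8 passed against 36N and S100a9 did not. S100a8 stood at 2257, 1076 and 2042, below all 36N libraries and overlapping 36S, and it fell 2.57-fold against 36N (log2 fold change -1.36, SE 0.31, limma adjusted p = 0.0437). That call was lost without 36N library 4, 36N library 6 or KD library 9 (adjusted p 0.104 to 0.109). S100a9 stood at 1532, 529 and 802, overlapping 36N by KD library 7 alone, with a log2 fold change of -1.34 (adjusted p = 0.123). Against 36S neither passed (S100a8 -1.36, adjusted p = 0.326, and S100a9 -1.50, adjusted p = 0.371), and without 36S library 1 the values were -0.21 and -0.14.

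The metalloproteinases had their KD values above those of 36N. Mmp8 was 8808, 6112 and 8543 in KD, far above every other untreated library, of which the highest was 36N library 5 at 1959. It rose 7.69-fold against 36S (log2 fold change 2.94, SE 0.21, limma adjusted p = 8e-05) and 4.23-fold against 36N (2.08, SE 0.16, adjusted p = 0.00011). Its order over the untreated groups, 36S below 36N below KD, held in all 9 libraries without overlap. Mmp9 stood at 648, 300 and 336 in KD, above all 36N libraries and above 36S libraries 2 and 3 but below library 1. It did not pass against either group (1.22, adjusted p = 0.447, and 1.39, adjusted p = 0.0986), and without 36S library 1 it passed as higher in KD (2.58, adjusted p = 0.00146). Cd177 stood at 3955, 3386 and 5195 in KD, above all 36S and 36N libraries. It rose 2.42-fold against 36S (log2 fold change 1.27, SE 0.20, adjusted p = 0.00391) and 2-fold against 36N (log2 fold change 1, adjusted p = 0.0114). Wfdc21 was low in KD, at 2.12, 7.55 and 3.89, where the lowest 36S and 36N libraries held 25.6 and 53.0. Its log2 fold changes were -4.34 (20.2-fold lower, adjusted p = 0.0189) and -4.37 (20.6-fold lower, adjusted p = 0.00218). These describe a gene that the filter on low values let in through the other group. The first call was lost without KD library 7 or 9 (adjusted p 0.0635 and 0.0736), and with a 36S or 36N library left out Wfdc21 fell below the filter and could not be fitted.

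**Figure D2:**
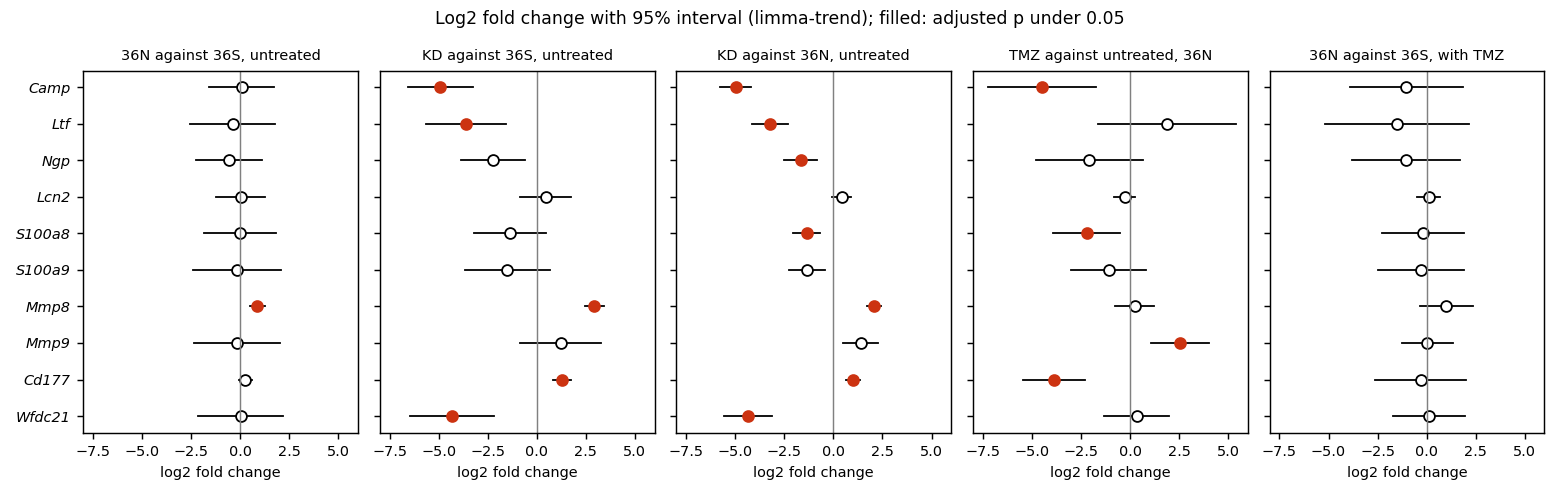
Log2 fold changes of log2(normalized count + 1) with 95% intervals for the 10 genes in 5 comparisons, from limma-trend on 3 libraries a group; filled points have an adjusted p under 0.05. Camp, Ltf and Wfdc21 lie below 0 and Mmp8 and Cd177 above 0 in both KD comparisons, with narrower intervals against 36N than against 36S.

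Other genes of neutrophil maturation, listed with earlier results of these data known, were mostly higher or not called in KD. Of 34 other late granule and mature neutrophil genes tested in KD against 36S, 13 rose and 2 fell, with a median log2 fold change of 0.47. Stfa3, a stefin A cysteine protease inhibitor, went from 22.04 ± 12.5 to 264 ± 106 normalized counts (mean ± SD, n = 3; log2 fold change 3.65, limma adjusted p = 0.00189), and the formyl peptide receptor gene Fpr2 rose by 2.17 (adjusted p = 0.00072). Il1r2, a decoy receptor for interleukin 1, fell by 2.84 on the log2 scale, from 85.4 ± 40.9 to 10.5 ± 3.29 (adjusted p = 0.00288), and Stfa2 rose by 1.92 (adjusted p = 0.0393). Against 36N, 5 of 34 rose and 1 fell, the ficolin gene Fcnb (170 ± 39.9 in 36N, 53.4 ± 0.553 in KD, log2 fold change -1.62, adjusted p = 0.00654). The risers included Anxa1 (1.05, adjusted p = 0.0122), Slpi (0.93, adjusted p = 0.0229) and Padi4 (0.87, adjusted p = 0.0127). Of 35 tested in 36N against 36S, 6 rose and none fell (median -0.06), led by Stfa3 (2.94), Stfa2 (2.76), Stfa2l1 (2.26) and Fpr2 (1.69). The stefin genes are near-identical copies, and how their reads were divided is not given in the sources used here.

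Primary granule genes, made before the 10, moved in both directions. Of 9 tested, 1 rose and 4 fell in 36N against 36S, and in KD against 36S, 2 rose and 4 fell (medians -0.90 and -0.72). Elane, neutrophil elastase, went from 35189 ± 10472 in 36S to 14361 ± 683 in 36N and 10071 ± 1103 in KD (log2 fold changes -1.25 and -1.77, limma adjusted p = 0.00866 and 0.00156). Mpo, myeloperoxidase, fell by 1.48 and 1.74 on the log2 scale, and Ms4a3 had log2 fold changes of -1.93 and -4.1. Lyz2, lysozyme of both monocytes and neutrophils, rose by 0.91 and 1.92. In KD against 36N, Ms4a3 and Prss57 fell (-2.18 and -1.03) and none rose. Of 9 transcription factors of neutrophil maturation, Irf8, which favours the monocytic fate, rose in 36N (0.77, adjusted p = 0.00837) and in KD (1.17, adjusted p = 0.00104) against 36S, and Cebpd rose in KD against 36N (0.83, adjusted p = 0.0275). Cebpe, the factor best known for late granule genes, stood at 361 ± 138 in 36S, 228 ± 24.0 in 36N and 346 ± 124 in KD and passed in none of the 3 comparisons (adjusted p 0.217, 0.93 and 0.279).

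Among the other S100 genes, S100a6 went from 282 ± 47.0 in 36S to 612 ± 197 in 36N and 1489 ± 358 in KD, and passed in all 3 comparisons (log2 fold changes 1.08, 2.38 and, for KD against 36N, 1.30; limma adjusted p = 0.0301, 0.00018 and 0.0171). S100a10, the partner of annexin A2, rose by 0.95 in 36N and 1.57 in KD against 36S, S100a4 rose by 1.35 in KD, and S100a1 fell by 0.61 in 36N. These were 3, 3 and 1 of 6 tested. Among partners, receptors and inhibitors of the 10 proteins, 2 of 11 rose and 1 fell in 36N against 36S, 5 of 11 rose and 2 fell in KD against 36S, and 2 of 12 rose in KD against 36N. Lrp1, a scavenger receptor that takes up Mmp9 and lactoferrin, rose in 36N (1.28) and in KD (0.93) against 36S. Slc22a17, a lipocalin 2 receptor, fell in both (-1.02 and -0.96), and Tlr4, a receptor of calprotectin, fell in KD (-0.87). Fpr2, a receptor of the cathelicidin peptide, is among the risers given above. Itgam and Itgb2, the chains of the integrin that Cd177 associates with, rose in KD against 36N (0.85 and 0.78); these 3 genes are also in the list of late neutrophil genes.

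Markers of other cells moved with genotype as well. Of 15 monocyte and macrophage markers, 2 rose in 36N against 36S (Cx3cr1 and Vcam1), 10 in KD against 36S (led by Fn1, Vcam1, Cd14 and Ccr2) and 4 in KD against 36N (Cd14, Fn1, Ly6c2 and Ccr2), and none fell. Their summed normalized counts were 61854 to 90240 in 36S, 87848 to 101514 in 36N and 175604 to 214158 in KD. Of the eosinophil markers, Prg2 and Siglecf rose in KD against both groups (2 of 5 tested), with sums of 247 to 444 in 36S, 196 to 346 in 36N and 942 to 2499 in KD. T and NK cell sums were 69.1 to 172 in 36S, 125 to 177 in 36N and 189 to 646 in KD, with Cd3g, Gzma and Cd3e called higher in KD against 36S (3 of 6). No 36S library reached 10 normalized counts for Cd3g or Gzma. Both entered the test through KD alone and had to be higher there. Igkc and Jchain fell in KD against both groups (2 of 7 B and plasma cell markers), and Vpreb3 was at 0 in all KD libraries. Mast cell and basophil markers gave 1 lower of 6 in 36N against 36S (Kit), 1 higher and 2 lower of 6 in KD against 36S, and 2 higher of 5 in KD against 36N (Cpa3 and Hdc). Ms4a2, among the 2 lower, reached 10 in no KD library, so it entered through 36S alone and had to be lower. No erythroid or megakaryocyte marker passed in the 3 comparisons, and Ppbp was at 0 in KD. The part of these cells in the values of the 10 genes was not tested.

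Within the 10, profiles over the 9 untreated libraries ranged from near-identical to opposite. Likeness was measured as the root mean square difference between log2 values, each gene centred on its own mean. S100a8 and S100a9 were the closest pair (0.32), Ngp lay near both (0.46 and 0.45), Camp and Wfdc21 lay near each other (0.67), and Mmp8 and Cd177 lay 0.70 apart. Camp and Mmp8 were furthest apart, at 3.64. Over 12873 genes, those nearest to the mean profile of the 10 were Fcnb (0.39), Mmp25 (0.44), Sept5 (0.49), Cd79a (0.51), Cd24a and Blnk (both 0.52), Mgam (0.54) and Prob1 (0.56), beside a median of 1.06 for all. Fcnb, for instance, stood at 363, 66.8 and 32.4 in 36S, 180, 125 and 203 in 36N, and 53.7, 52.7 and 53.6 in KD. It shared the high 36S library 1, which follows from its choice by likeness over these same libraries.
The nearest gene to each member differed. It was Lrg1 for Ltf (0.59), Itgb2l for Ngp (0.32), the peptidoglycan recognition protein gene Pglyrp1 for Lcn2 (0.27), BC064078 for Mmp8 (0.29), Ly6g for Mmp9 (0.47) and Cib2 for Cd177 (0.15). BC064078 stood at 27.3, 36.0 and 44.4 in 36S, 50.3, 58.3 and 60.6 in 36N, and 276, 258 and 297 in KD. Like Mmp8 it did not overlap between the 3 groups. Pglyrp1, at 1360, 564 and 324 in 36S, 556, 495 and 572 in 36N, and 917, 494 and 809 in KD, was high in 36S library 1 and not low in KD, as Lcn2 was. The nearest genes were picked by likeness over these same libraries, so such shared patterns follow from the choice and are not a separate result.

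With TMZ in 36N, Camp, Cd177 and S100a8 fell and Mmp9 rose, and the other 6 did not pass the test. The untreated libraries are not listed as held for 20 h, so the drug and the 20 h of exposure cannot be told apart here. The background in this comparison was high: 36.3% of genes were called higher and 33.5% lower, beside 1 and 3 of the 10, and 74.5% had no overlap between groups, beside 4 of the 10. The median log2 fold change of the 10 was -0.68, beside 0.06 over all genes. With equal totals the overall median was -0.09, and genes called went from 5217 higher and 4820 lower to 4668 and 5350, with the same count of 4 of the 10. Library 5 had the lowest value of the 36N TMZ group for all 10 genes. Untreated 36N library 5 was also lowest of its group for Camp, Ltf, Ngp, S100a8, S100a9 and Wfdc21, and not for Lcn2, Mmp8, Mmp9 and Cd177.

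Camp went from 1297, 629 and 1262 normalized counts to 73.5, 4.66 and 222, with no overlap (22.2-fold lower, log2 fold change -4.47, SE 1.18, limma adjusted p = 0.0106). Without TMZ library 5 it was -2.97 (adjusted p = 0.00156), and without library 6 it was -5.62 (adjusted p = 0.00198). Cd177 went from 2866, 3211 and 2788 to 495, 56.8 and 281. It was 14.7-fold lower, again without overlap (-3.88, SE 0.69, adjusted p = 0.00152), with -2.98 without TMZ library 5 (adjusted p = 5.1e-05) and -4.53 without library 4 (adjusted p = 0.00039). S100a8 went from 6575, 4871 and 10503 to 3986, 436 and 1935, all below the untreated values (4.64-fold lower, -2.21, SE 0.73, adjusted p = 0.0269). It was -1.32 without TMZ library 5 (adjusted p = 0.0182) and -2.92 without library 4 (adjusted p = 0.00384), and the call was lost without untreated library 4 or 6 (adjusted p 0.0637 and 0.0882). S100a9 overlapped, from 3812, 1808 and 5444 to 3958, 396 and 2504 (-1.08, adjusted p = 0.267).
Mmp9 was the riser. It went from 124, 167 and 383 to 1535, 451 and 2240, with all TMZ libraries above all untreated (5.78-fold, log2 fold change 2.53, SE 0.63, adjusted p = 0.00806, and 3.21 with adjusted p = 0.00066 without TMZ library 5). Mmp8 overlapped, from 2575, 2935 and 2715 to 5992, 1555 and 3557 (0.23, adjusted p = 0.646), and passed as higher without TMZ library 5 (0.75, adjusted p = 0.0176). In the KD comparisons Mmp8 passed and Mmp9 did not, and whether the KD and the TMZ effects differ was not tested.
Ngp went from 3204, 1446 and 3587 to 928, 78.0 and 3002 and overlapped by library 6 (-2.08, adjusted p = 0.147). It passed as lower without TMZ library 6 (-3.24, adjusted p = 0.0195), and a block for the library number also moved it past the threshold (adjusted p = 0.0365). Lcn2 overlapped, from 2812, 3123 and 3823 to 2931, 1904 and 3339 (-0.28, 95% interval -0.80 to 0.24, adjusted p = 0.284). Wfdc21 went from 149, 75.4 and 285 to 483, 74.9 and 177, a full overlap (0.33, adjusted p = 0.695).

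Ltf needs the scale of the tables beside it. In the table that holds both groups it went from 308, 213 and 760 to 3176, 92.6 and 8687 (log2 fold change 1.89, 95% interval -1.61 to 5.40, limma adjusted p = 0.289), and without TMZ library 5 it passed as higher (3.83, adjusted p = 0.00098). Yet the same untreated 36N libraries held 612, 424 and 1505 in the untreated table. From that table to this one the median gene went up 1.45-fold to 1.46-fold while Ltf went to 0.50 to 0.51 of its value, a log2 deviation of -1.53 that 0.27 to 0.31% of genes matched or exceeded. The 36N TMZ libraries, which also occur in the table of TMZ libraries alone (1800, 52.0 and 4824 there), gave a deviation of -1.40 for Ltf. The other 9 genes deviated by -0.16 to 0.14, and 91.3 to 91.5% of genes lay within 1.5-fold of the median ratio. With untreated values from the untreated table and TMZ values from the TMZ table, both brought to the scale of the middle table by the median ratio, Ltf went from 888, 615 and 2199 to 1207, 35.2 and 3300, a log2 difference of -1.02. On this joined scale the Ltf group mean still rose, from 1234 to 1514, and only TMZ library 5 lay below every untreated library. The joined difference without that library was not computed. The sign of the Ltf log2 difference over all libraries thus depends on the table, while Camp (-4.25), Cd177 (-3.94), S100a8 (-1.95), Mmp9 (2.30) and the other 5 kept theirs. The cause was not tested.

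**Figure D3:**
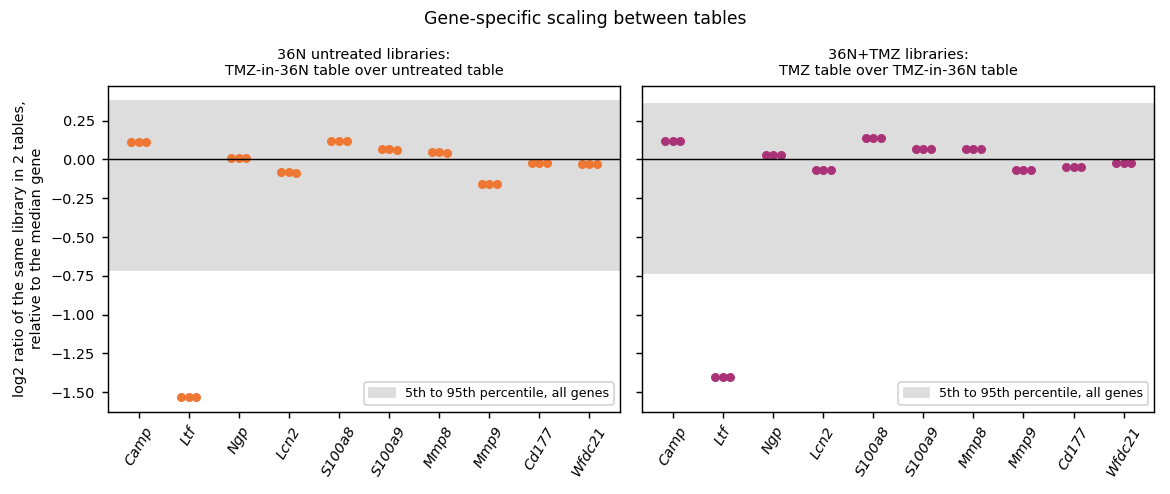
Log2 ratio of the same library's value in 2 tables, relative to the median gene, for the 10 genes in the 36N libraries (left) and the 36N TMZ libraries (right), 3 points a gene; the grey band spans the 5th to the 95th percentile of all genes. Ltf lies at -1.53 and -1.40, outside the band, and the other genes lie near 0.

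**Figure D4:**
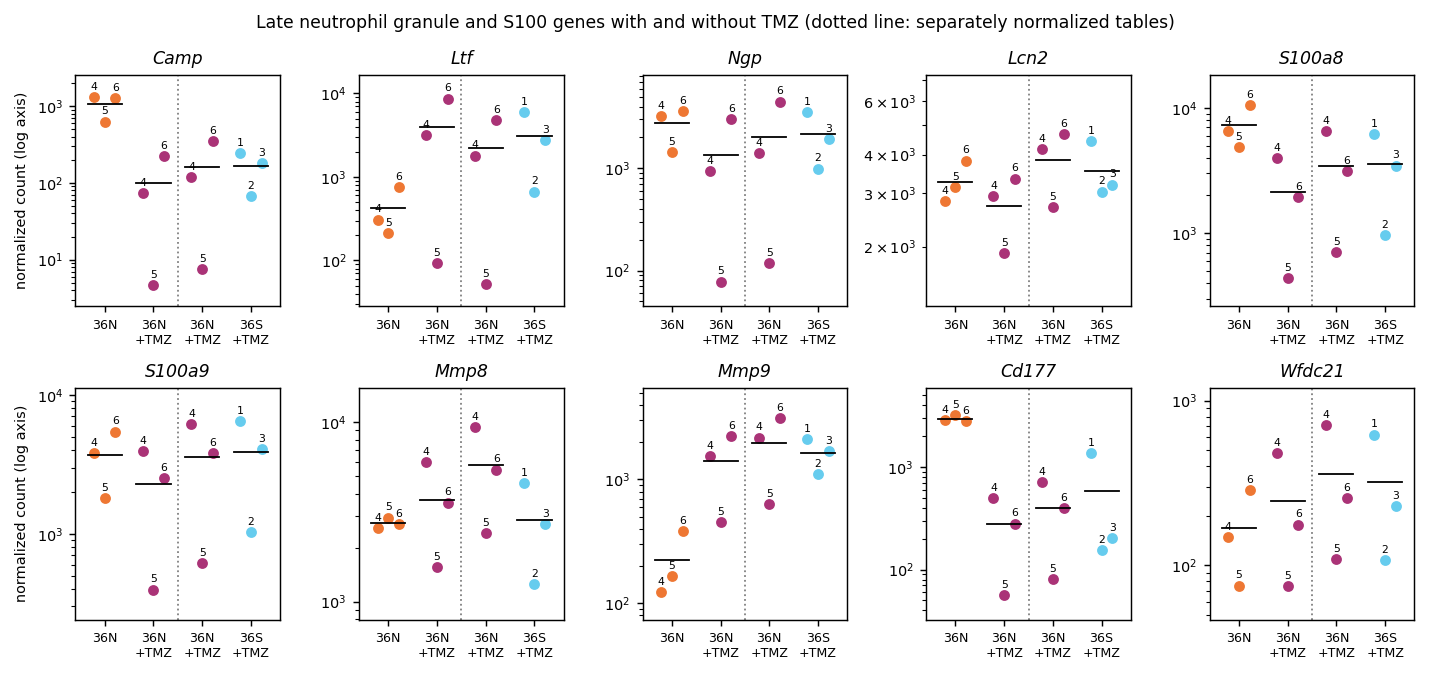
Normalized counts (log axis) of the 10 genes in 36N and 36N TMZ libraries (left of the dotted line, 1 table) and in 36N TMZ and 36S TMZ libraries (right of it, a table normalized separately), points with library numbers and lines at group means of 3. Camp, Cd177 and S100a8 are lower and Mmp9 is higher with TMZ without overlap, library 5 is lowest in 36N TMZ throughout, and the 36N TMZ and 36S TMZ groups overlap for every gene.

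With TMZ, the 10 genes did not separate 36N from 36S. For all 10 the groups overlapped, beside 4.76% of genes that did not, and limma called 0 of the 10 higher or lower, beside 0% of 14246 genes higher and 0% lower. At an unadjusted p under 0.05 there were 191 genes, of which 0 were among the 10. In 36S TMZ, library 1 was highest and library 2 lowest for all 10, the order of libraries 2 and 3 being the reverse of that in untreated 36S for 8 of them. Camp stood at 246, 68.0 and 181 in 36S TMZ and 119, 7.47 and 352 in 36N TMZ, S100a8 at 6173, 970 and 3466 and 6549, 710 and 3115, and Cd177 at 1372, 154 and 203 and 715, 81.3 and 398. In each case the 36N TMZ library 5 lay below all 36S TMZ libraries and the others within or above their range. S100a9 (6511, 1023 and 4086 against 6183, 613 and 3833), Ltf (5909, 665 and 2772 against 1800, 52.0 and 4824) and Ngp (3526, 991 and 1927 against 1411, 118 and 4475) overlapped in the same way. Lcn2 was the most even, at 4420, 3024 and 3191 against 4175, 2687 and 4660. Mmp9 stood at 2102, 1107 and 1692 against 2178, 635 and 3114, and Wfdc21 at 621, 107 and 229 against 712, 110 and 256. Mmp8 had the largest positive log2 fold change, 0.99 (95% interval -0.36 to 2.35), with 4571, 1253 and 2714 in 36S TMZ and 9359, 2407 and 5445 in 36N TMZ, and Ltf the largest negative one, -1.52 (-5.20 to 2.15).
The difference between the genotype effects with and without TMZ was tested over the 12 libraries of both genotypes, with an intercept for each table. It called 0.281% of genes and 0 of the 10, whose values ran from -1.14 (Ltf) to 0.21 (Mmp9), with limma adjusted p from 0.946 to 0.998. At an unadjusted p under 0.05 there were 1014 of 14584 genes and 0 of the 10. For Mmp8 it was 0.13 (95% interval -1.32 to 1.58). TMZ within 36S was not tested, since no table used here holds both 36S groups.

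The other neutrophil genes moved widely with TMZ in 36N, in both directions, against a background of 36.3% higher and 33.5% lower. Of 34 late granule and mature neutrophil genes, 14 rose and 10 fell (median log2 fold change 0.65). Ly6g, the surface antigen of mature mouse neutrophils, went from 19.2 ± 10.3 to 833 ± 652 normalized counts (5.24, limma adjusted p = 0.00016), and the metalloproteinase gene Adam8 from 215 ± 81.6 to 6970 ± 1963 (5.06, adjusted p = 1.1e-05). Stfa1 went from 3328 ± 600 to 35.8 ± 41.8 (-7.28, adjusted p = 0.00018), and Stfa2 fell by 5.17 on the log2 scale. Of 9 primary granule genes 4 rose and 1 fell: Elane dropped by 3.32, while Ctsg, Cst7 and Ms4a3 rose by 2.18, 2.17 and 2.07. Of the 9 transcription factors 3 rose and 4 fell. Irf8 fell from 7033 ± 119 to 595 ± 422 (-3.82) and Spi1, which encodes PU.1, from 5852 ± 210 to 1835 ± 319 (-1.69), while Klf5 and Cebpa rose (2.10 and 1.68). Cebpe overlapped, at 295 ± 30.4 and 202 ± 180 (-0.92, adjusted p = 0.177). Of 6 other S100 genes 2 rose (S100a6, 1.36, and S100a10, 1.28) and 2 fell (S100a11, -1.87, and S100a1, -0.87). Of 12 partners, receptors and inhibitors 6 rose and 5 fell. The gelatinase inhibitor Timp2 was among the risers (2.38, adjusted p = 0.00033; it was chosen after its value was seen), and F2rl1, Slc22a17, Fpr2 and Cd33, a receptor of S100a9, fell by 3.91, 3.64, 2.85 and 2.69. F2rl1 reached 10 normalized counts in no 36N TMZ library, so it entered the test through untreated 36N alone and had to fall. In 36N against 36S with TMZ and in the interaction, none of these lists had a gene called.

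Markers of other cells moved beside the 10 genes in the TMZ libraries. All 10 mast cell and basophil markers rose, with a median log2 fold change of 8.91, among them Cpa3, from 174 ± 227 to 73318 ± 27121 normalized counts. Their sums were 987 to 1725 untreated, with Fcer1a and Mcpt4 at 0, and 109014 to 302393 with TMZ. Of 7 megakaryocyte and platelet markers 6 rose (median 5.75), with sums of 222 to 443 and 30266 to 57997, and of 6 eosinophil markers 5 rose, with sums of 311 to 548 and 1157 to 4636. Monocyte and macrophage markers fell for 8 of 15 and rose for 4, with sums of 123625 to 132668 and 15124 to 42833. B and plasma cell markers fell for 6 of 7, with sums of 8790 to 15144 and 248 to 542. Of 6 T and NK cell markers 1 rose and 4 fell, and Cd3e, Trbc2 and Gzma were at 0 with TMZ. Of 9 erythroid markers 2 rose and 1 fell. Some of these marker genes entered the test through 1 group alone, so their direction was fixed in advance. Prss34, Fcer1a, Mcpt4, Cma1, Ppbp, Gp1bb and Epx, all risers, reached 10 normalized counts in no untreated library. Among the fallers, Igkc, Jchain, Cd79a, Cd3e, Cd3g, Klrb1c, Klrd1 and Rhd reached 10 in no TMZ library. Library 5, lowest for all 10 genes, also had the lowest monocyte sum (15124) and the lowest sum of other late neutrophil genes (74678, against 123101 and 121958), and its mast cell sum (223414) lay between those of libraries 4 and 6. The part of these cells in the values of the 10 genes was not tested.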

How the data were processed

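RNA sequencing values of 15 libraries in 5 groups of 3 were read from 4 tables of normalized counts (a signal per gene) as deposited by the authors. Salmon, DESeq2 and the mm10 build are named, without versions, per the submitters' processing notes, and the filters are unknown here. Raw reads and their depth are unknown, so no counting interval is given, and 0 value columns were left unmapped.

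The values were taken as log2(value + 1), so fold changes of low genes are understated. Genes with at least 10 in at least 3 of the libraries fitted were tested with limma 3.58.1 (trended variance, R 4.3.3), on the compared groups only, and p-values were adjusted by Benjamini-Hochberg over all genes tested, with a threshold of 0.05. The untreated tables share their 36S values, which allowed KD against 36N. The script was tested on simulated data. The 10 genes, the gene lists and the naming rule were chosen with earlier results of these data known. From each other list, up to 4 called genes with the largest absolute log2 fold change were named in a comparison. The 8 genes nearest to the mean profile of the 10, and the gene nearest to each, were named by root mean square difference, passing over unnamed gene models and pseudogenes. Positions come from GENCODE M21 (mm10) and promoters from RefSeq (GRCm38.p6).

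Alternatives were pseudocounts of 0.5 and 5, a filter of 50 or none, equal totals, quantile normalization, no trend, a robust trend, library weights, a joint fit of the untreated groups, a replicate block and leaving out each library. Joining the tables by their median ratio was chosen after seeing the data. TMZ in 36S was left out, since no table used here holds both groups.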

Additional observations from a re-analysis of the deposited data

How the results depend on the processing

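Counts of the 10 genes called moved as follows. In 36N against 36S, 1 gene was called, 0 without a variance trend, 2 with library weights and 0 to 1 with a library left out. In KD against 36S the count of 5 became 3 without a trend, 7 with library weights and 3 to 6 with a library left out. In KD against 36N the count of 7 became 4 without a trend, 4 in a joint fit of all untreated groups, 9 with library weights and 4 to 9 with a library left out. With all libraries kept, some KD calls were lost under at least 1 alternative. Against 36N the highest limma adjusted p was 0.0676 for Ltf, 0.0744 for Cd177, 0.205 for Ngp and 0.333 for S100a8. Against 36S it was 0.115 for Ltf and 0.0637 for Wfdc21. With TMZ in 36N the count was 4, 3 to 5 under the other alternatives and 3 to 6 with a library left out.

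Some values changed sign, none of them a call. In 36N against 36S, Wfdc21 (0.03) was -0.01 with a pseudocount of 5 and -0.10 with library weights, and Mmp9 (-0.16) was 0.48 with library weights. Ltf with TMZ was -1.02 when the tables were joined. With a library left out, 36N against 36S ran from -0.69 to 1.08 for Camp, -1.44 to 0.88 for Ltf, -1.29 to 0.43 for Ngp, -0.52 to 0.84 for Lcn2, -0.84 to 1.16 for S100a8, -1.19 to 1.20 for S100a9, -1.01 to 1.19 for Mmp9 and -0.94 to 1.29 for Wfdc21. Lcn2 in KD against 36S ran from -0.10 to 1.26. With TMZ in 36N, Mmp8 ran from -0.22 to 0.75 and Wfdc21 from -0.35 to 0.98. In 36N against 36S with TMZ the ranges were -2.20 to 0.49 for Camp, -2.84 to 0.41 for Ltf, -2.21 to 0.41 for Ngp, -0.06 to 0.34 for Lcn2, -0.92 to 0.72 for S100a8, -1.08 to 0.69 for S100a9, -0.43 to 0.72 for Mmp9, -0.96 to 0.69 for Cd177 and -0.57 to 0.79 for Wfdc21.

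Genes called over the whole tables moved by more than 1.5-fold in places. In 36N against 36S, 599 became 305 without a trend, 3304 with library weights and 188 to 508 with a library left out. In KD against 36S, 1503 became 4289 with library weights and 591 to 2051 with a library left out. In KD against 36N, 425 became 203 without a trend, 3721 with library weights and 116 to 1986 with a library left out. The interaction's 41 became 119 with library weights and 11 to 39 with a library left out. The causes were not tested. With TMZ in 36N, the library number as a replicate block gave 9985 genes called beside 10037, and 5 of the 10 beside 4. Same-numbered libraries deviated together only weakly (correlations 0.019, 0.0371 and 0.0858), and TMZ library 5 correlated better with untreated library 4 (0.0609) than with its own number. With 3 libraries a group, these correlations cannot show whether libraries of the same number come from the same leukemia. The main fit did not treat them as pairs. Depth is unknown, and 3 libraries a group limit the precision.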
